A study of Homo sapiens with 14 samples.

Results

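A set of 6 genes that restrain cyclin-dependent kinases (CDKs) was followed through 2 cancer cell lines under drugs that act on the cell cycle. They were chosen by their gene symbols, 6 of the 60683 Ensembl gene identifiers in the count tables. *CDKN1A* (p21), *CDKN1B* (p27) and *CDKN1C* (p57) form the CIP/KIP family, *CDKN2C* (p18) and *CDKN2D* (p19) belong to the INK4 family, and *CDKN3* shares the name but encodes a phosphatase. On hg38 (GENCODE release 44) *CDKN1A* lies at chr6:36676460-36687337, *CDKN1B* at chr12:12685498-12722369, *CDKN2C* at chr1:50960745-50974634 and *CDKN3* at chr14:54396849-54420218 on the plus strand, and *CDKN1C* at chr11:2883213-2885775 and *CDKN2D* at chr19:10566460-10569059 on the minus strand. The other INK4 genes were left out for want of reads. *CDKN2A* had 0 counts in all 10 A549 libraries and 3, 1, 0 and 1 counts in the 4 SUM159 libraries, and *CDKN2B* had 0 counts in A549 and 1, 0, 0 and 1 in SUM159. With 3 counts as the smallest level taken as measurable, these genes lay at or under 0.142 to 0.230 CPM (counts per 1000000 counts on genes), depending on the library. A549 is known for a homozygous loss of the *CDKN2A* locus. An antisense transcript, *CDKN2B-AS1*, shares 593 bp of exon with *CDKN2A* and had 2 to 158 counts per library. The strand setting used for counting is not known, and its effect on *CDKN2A* was not tested. These RNA counts do not measure protein.

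CIP/KIP proteins bind whole cyclin-CDK complexes and block chiefly those of CDK2 and CDK1, while INK4 proteins bind CDK4 and CDK6 alone and keep cyclin D from joining them. The protein of *CDKN1A* is known for holding cells in G1 after damage. The amount of p27 is set largely by its degradation, so *CDKN1B* RNA need not follow the protein, and the protein of *CDKN3* removes the activating phosphate of CDK2 and is made mostly in dividing cells.

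RNA was sequenced from A549, a lung adenocarcinoma line, and SUM159, a triple-negative breast cancer line, with 2 libraries in each of 7 groups. A549 was left untreated or given 2 μM palbociclib, an inhibitor of CDK4 and CDK6, for 10 days. Other A549 cells received 0.5 μM indisulam, which makes the ligase substrate receptor DCAF15 degrade the splicing factor RBM39, or both drugs together (the combination), also for 10 days. A549 and SUM159 were each given 0.5 μM PF-06873600 for 7 days, a compound that blocks CDK2 besides CDK4 and CDK6, and SUM159 was also left untreated. The labels name no vehicle and give no collection time for untreated cells. The series design calls the 2 libraries of a group technical duplicates, so p-values here measure only the spread between such libraries and not between independent cultures. Each A549 treatment was set against the same 2 untreated libraries.

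Counts on genes totalled 13060374 to 21149256 per library, and the 2 libraries of a group correlated at 0.995 to 0.998 on the log2 scale across genes. All 8 A549 markers were detected in every A549 library, with median levels from 14.5 CPM (*EPCAM*) to 4181 CPM (*AKR1B10*), whereas *SFTPA1*, *SFTPB* and *SFTPC* of mature alveolar cells stayed at or under 0.371 CPM. SUM159 also expressed *KRT8*, *KRT18* and *AKR1C1* of these markers, with medians of 337, 235 and 78.9 CPM. The other A549 markers had SUM159 medians from 0.421 CPM (*CDH1*) to 7.73 CPM (*AKR1B10*). In SUM159 the 5 mesenchymal markers had median levels from 75.9 CPM (*ZEB1*) to 8604 CPM (*FN1*). A549 expressed these 5 genes too, with medians from 42.6 CPM (*ZEB1*) to 1790 CPM (*FN1*). The *CD44* median was 1125 CPM in A549 and 1128 CPM in SUM159. *ESR1* and *PGR* stayed at or under 0.662 CPM in SUM159, and *ERBB2* was measured at 118 to 130 CPM there and 109 to 166 CPM in A549. The fibroblast gene *COL1A1* reached 1599 to 3257 CPM in SUM159, the leukocyte gene *PTPRC* 9.35 to 20.3 CPM and the endothelial gene *PECAM1* 10.9 to 27.6 CPM. Bulk counts cannot tell fewer cells that express a gene from less of its RNA per cell.

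Promoter windows are shown for the member that rose most and for 2 that fell. RefSeq windows of GRCh38.p14, from 250 bases before to 50 bases after an annotated start, matched 5 of the 6 genes, with 3 windows for *CDKN2C*. Each was searched on both strands for the CCAAT box (CCAAT), the GC box (GGGCGG), the core of the cell-cycle homology region CHR (TTTGAA) and an E2F-type element (TTTGGCGC or TTTCGCGC), counting overlapping copies. Capitals mark every match on either strand, and all 3 sequences read 5′ to 3′ on the plus strand.
CDKN1A, chr6:36678464-36678763: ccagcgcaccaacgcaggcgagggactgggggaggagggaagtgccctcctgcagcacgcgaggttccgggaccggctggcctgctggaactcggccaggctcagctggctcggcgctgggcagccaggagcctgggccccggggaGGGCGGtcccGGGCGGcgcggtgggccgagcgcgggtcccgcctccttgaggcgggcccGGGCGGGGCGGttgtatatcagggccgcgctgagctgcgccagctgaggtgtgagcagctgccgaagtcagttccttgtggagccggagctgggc
CDKN1B, chr12:12717118-12717417: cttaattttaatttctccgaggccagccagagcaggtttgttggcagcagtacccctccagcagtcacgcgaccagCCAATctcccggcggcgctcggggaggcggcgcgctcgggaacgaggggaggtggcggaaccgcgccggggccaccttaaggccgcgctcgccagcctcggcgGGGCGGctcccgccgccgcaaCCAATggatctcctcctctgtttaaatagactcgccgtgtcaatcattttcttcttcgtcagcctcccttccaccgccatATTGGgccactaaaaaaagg
CDKN3, chr14:54396757-54397056: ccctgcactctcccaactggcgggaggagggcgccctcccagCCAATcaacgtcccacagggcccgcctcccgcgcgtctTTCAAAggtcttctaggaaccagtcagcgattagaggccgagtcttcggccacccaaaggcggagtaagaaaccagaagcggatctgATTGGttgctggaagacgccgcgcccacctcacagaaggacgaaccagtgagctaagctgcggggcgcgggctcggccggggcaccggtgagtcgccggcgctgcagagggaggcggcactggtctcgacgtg
The *CDKN1A* window held 4 GC boxes and no CCAAT or TTTGAA. The *CDKN1B* window held 3 CCAAT boxes and 1 GC box. The *CDKN3* window held 2 CCAAT boxes and 1 CHR core, with no GC box. Among 35116 RefSeq promoter windows of the same length, 45.0% held the GC box, 34.6% CCAAT, 15.2% TTTGAA and 1.15% the E2F-type element, which none of the members' windows contained. For the other members, *CDKN2D* held 3 GC boxes and 1 CCAAT box. The 3 *CDKN2C* windows held 0, 6 and 1 GC boxes and 0, 0 and 1 CCAAT boxes. These matches describe letters in the windows and were not tied to binding data.

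*CDKN1A* was the member whose RNA rose furthest, and it rose in every treated group. In untreated A549 its 2 libraries read 39.2 and 43.7 CPM. Palbociclib gave 56.0 and 54.3 CPM, indisulam 377 and 383 CPM, the combination 683 and 666 CPM, and PF-06873600 504 and 523 CPM. The groups did not overlap at any step, so the order of levels in A549 was combination, PF-06873600, indisulam, palbociclib and untreated. Against untreated cells, palbociclib raised *CDKN1A* by 0.41 on the log2 scale (SE 0.07, adjusted p = 0.000859), or 1.33-fold, by edgeR's quasi-likelihood test with Benjamini-Hochberg adjustment over all tested genes. Indisulam raised it 9.18-fold (log2 fold change 3.20, SE 0.07, adjusted p = 6.14e-13). The combination raised it 16.3-fold, a log2 fold change of 4.03 with a 95% interval of 3.88 to 4.17, and PF-06873600 12.4-fold, a log2 fold change of 3.63 with an interval of 3.49 to 3.77. An antisense transcript, *DINOL*, shares 146 bp of exon with *CDKN1A*. Whether counting used the strand is not given in the sources used here, but *DINOL* itself had 0 or 1 count per library.

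**Figure D1:**
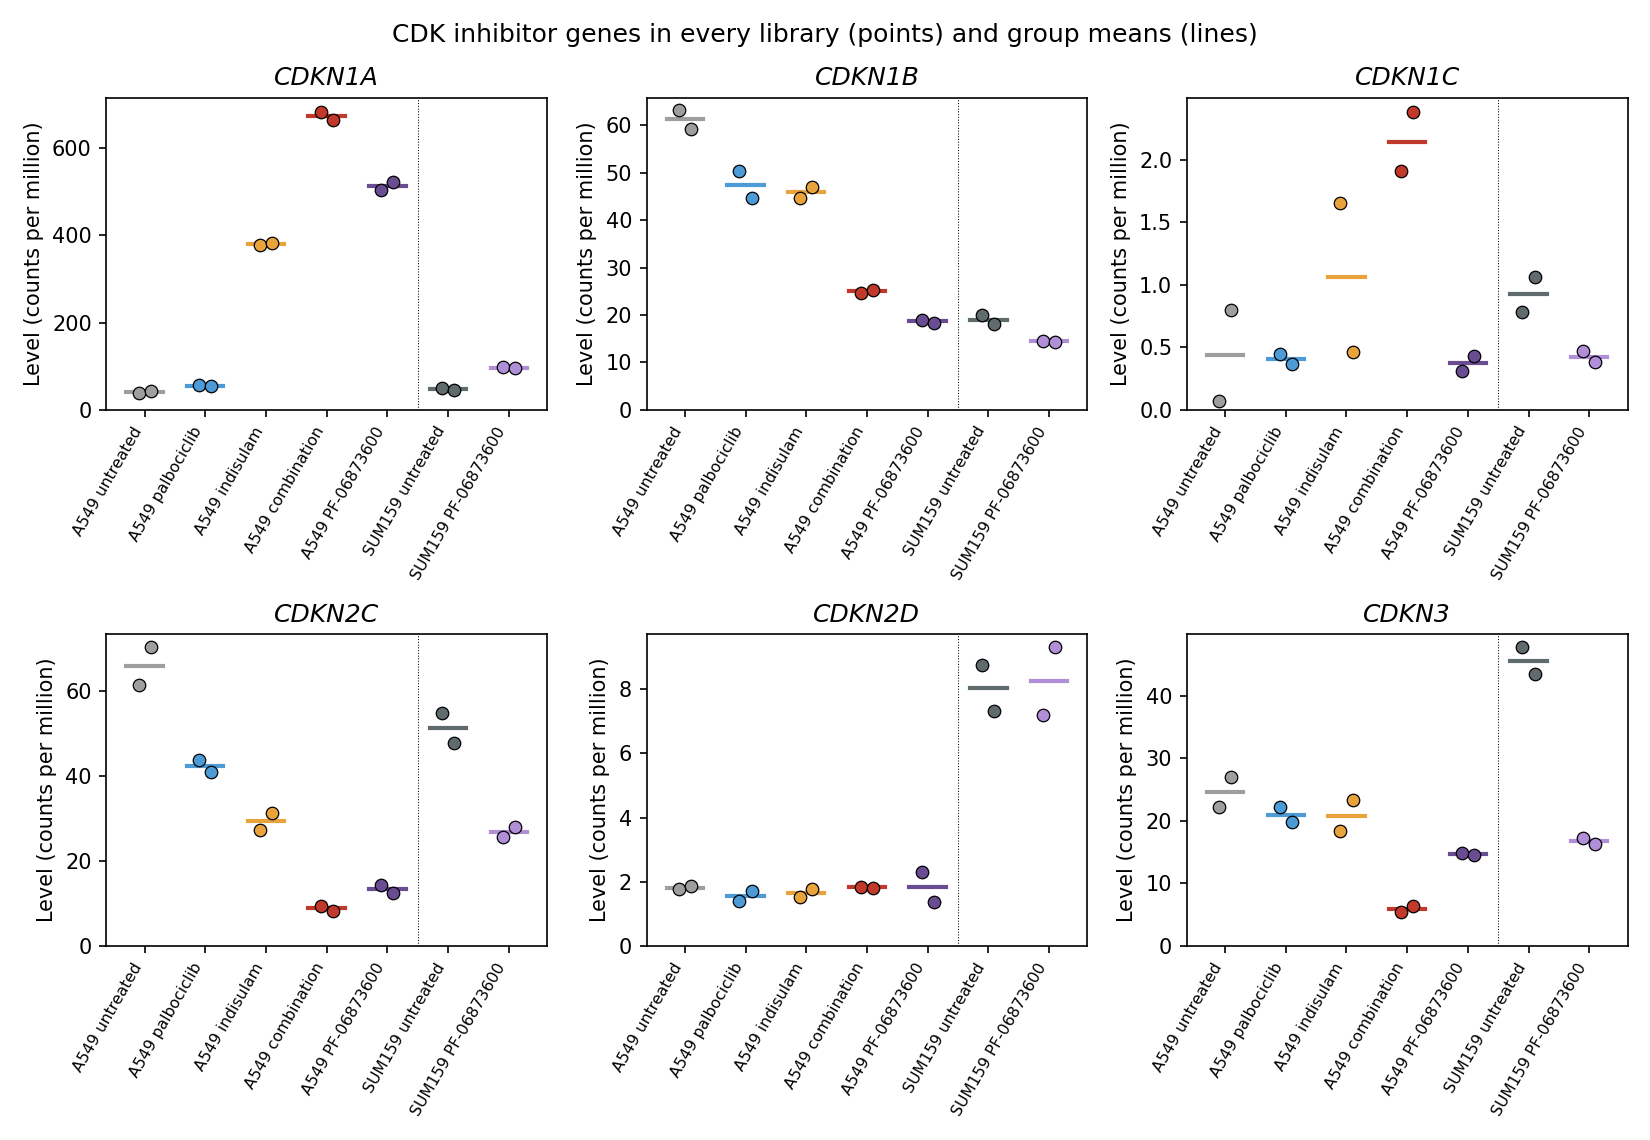
Level of each CDK inhibitor gene in CPM (vertical axis, linear and starting at 0, scaled per gene) for the 7 groups along the horizontal axis. Points are single libraries and lines the means of 2. *CDKN1A* climbs from 39.2 and 43.7 CPM in untreated A549 to 683 and 666 CPM under the combination, while *CDKN2C* descends from 61.5 and 70.3 CPM to 9.5 and 8.24 CPM.

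*CDKN1B*, the gene of p27, moved the other way in all treated groups. Untreated A549 held 63.3 and 59.2 CPM. Palbociclib left 50.3 and 44.7 CPM, indisulam 44.7 and 47.0 CPM, the combination 24.7 and 25.2 CPM, and PF-06873600 18.9 and 18.3 CPM. All 8 treated libraries lay under both untreated ones, and the palbociclib and indisulam libraries overlapped each other. The fall under palbociclib was small, with a log2 fold change of -0.37 (SE 0.08) and an adjusted p of 0.00442, and it no longer passed the threshold without palbociclib replicate 2 (adjusted p = 0.0821) or with only the compared groups in the model (adjusted p = 0.0607). Under indisulam *CDKN1B* fell 1.34-fold (log2 fold change -0.42, adjusted p = 0.000512). The combination lowered it 2.45-fold and PF-06873600 3.29-fold, log2 fold changes of -1.30 and -1.72.

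*CDKN1C*, the gene of p57, was close to the limit of detection. Its counts were 1 and 12 in untreated A549, 6 and 6 under palbociclib, 24 and 7 under indisulam, 27 and 37 under the combination, and 4 and 7 under PF-06873600. Both combination libraries lay above all the other A549 libraries. The combination passed the test with a log2 fold change of 2.28 (SE 0.59, adjusted p = 0.00363), but the size rested on the untreated libraries: it was 1.42 without untreated replicate 1 and 4.82 without untreated replicate 2. With indisulam alone the 2 libraries stood apart (24 against 7 counts), the log2 fold change was 1.25 with an interval of -0.22 to 2.71, and the adjusted p was 0.153. That value became 0.00818 without untreated replicate 2, 0.0339 without indisulam replicate 2 and 0.0274 with no filter on low counts. With 1 library left out the log2 fold change of *CDKN1C* under indisulam ran from 0.08 to 3.79.

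*CDKN2C*, which encodes the INK4 protein p18, fell in every treated group and furthest under the combination. Untreated A549 held 61.5 and 70.3 CPM, palbociclib 43.8 and 40.8 CPM, and indisulam 27.3 and 31.3 CPM. The combination left 9.5 and 8.24 CPM, and PF-06873600 14.4 and 12.4 CPM. No 2 of these 5 groups overlapped. Log2 fold changes were -0.64 under palbociclib (SE 0.09, adjusted p = 0.000347), -1.17 under indisulam (SE 0.10, adjusted p = 3.04e-07), -2.90 under the combination (SE 0.12, adjusted p = 2.47e-11) and -2.31 under PF-06873600 (SE 0.11, adjusted p = 3.37e-10). The combination thus left 7.44-fold less *CDKN2C* RNA than in untreated cells, and PF-06873600 4.95-fold less.

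*CDKN2D*, which encodes the INK4 protein p19, was low in A549 and passed the test in none of the comparisons within a line. Untreated libraries held 1.77 and 1.87 CPM, and the 8 treated A549 libraries ranged from 1.36 to 2.30 CPM, with PF-06873600 giving both ends of that range. Counts in A549 were only 19 to 30 per library, so the 95% intervals were wide: -0.84 to 0.42 for palbociclib, -0.76 to 0.49 for indisulam, -0.61 to 0.62 for the combination and -0.64 to 0.60 for PF-06873600, all as log2 fold changes. Changes of less than about those sizes were not detectable at this depth.

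*CDKN3*, the gene of the CDK-associated phosphatase, fell under the combination and PF-06873600. Untreated libraries held 22.2 and 27.1 CPM, palbociclib 22.3 and 19.8 CPM, and indisulam 18.3 and 23.3 CPM. These 3 groups overlapped, and neither drug alone passed the test (log2 fold changes -0.23 and -0.24, adjusted p = 0.257 and 0.142). Without untreated replicate 1 both did (adjusted p = 0.0475 and 0.0221), as did indisulam without indisulam replicate 2 (adjusted p = 0.0371). Under the combination *CDKN3* read 5.39 and 6.44 CPM, 4.15-fold lower than untreated (log2 fold change -2.05, SE 0.15, adjusted p = 2.59e-08). PF-06873600 left 14.9 and 14.6 CPM, 1.67-fold lower (log2 fold change -0.74, SE 0.13, adjusted p = 0.000278).

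**Figure D2:**
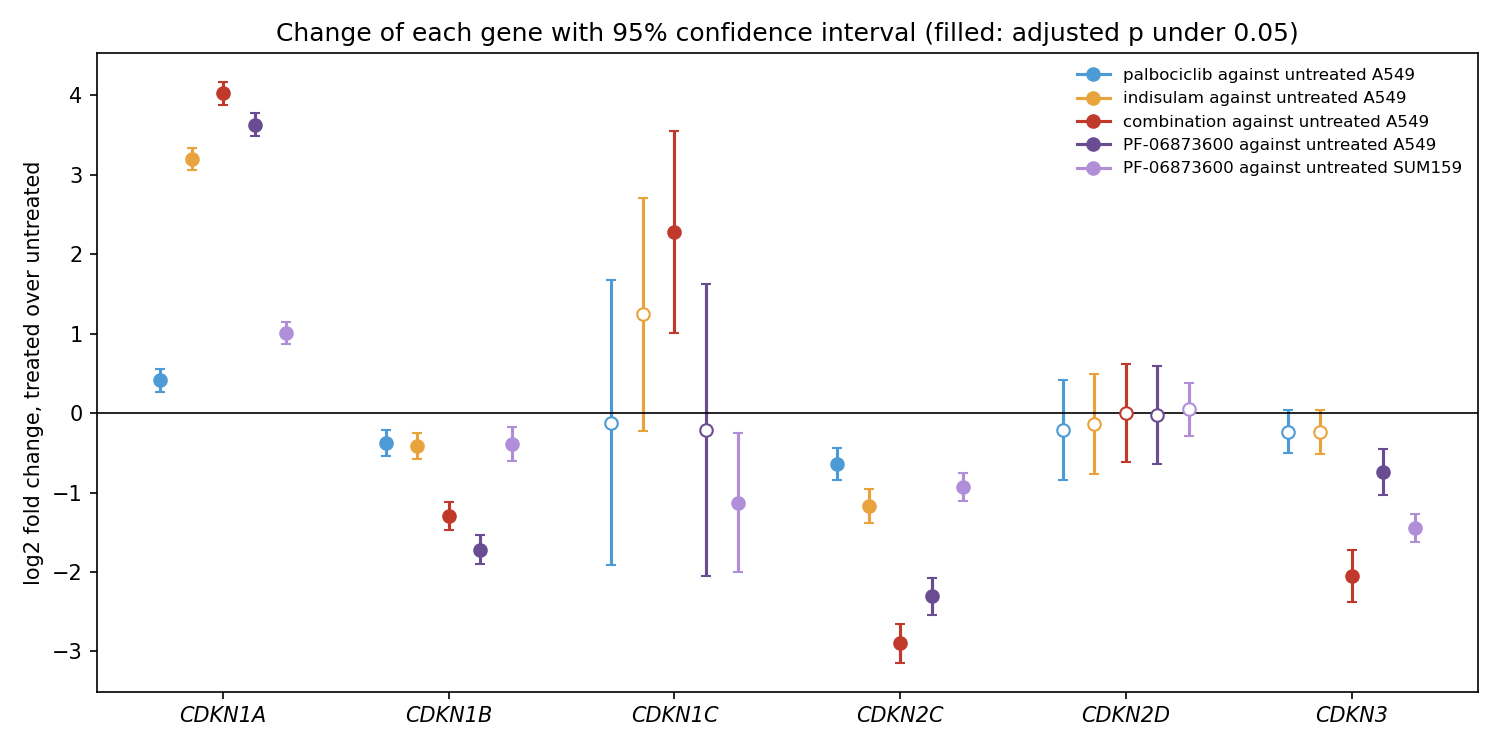
Log2 fold change of each gene, treated over untreated cells of the same line (vertical axis), for 5 treatments. Points are estimates from edgeR, bars their 95% confidence intervals, and open points did not pass an adjusted p of 0.05. *CDKN1A* lies above 0 under all 5 treatments, *CDKN1B* and *CDKN2C* lie below 0 under all 5, and all 5 *CDKN2D* intervals include 0.

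Counted by treatment, palbociclib changed 3 of the 6 members (1 higher, 2 lower) where 15.7% of all 15780 tested genes passed the test. Indisulam changed 3 (1 higher, 2 lower) against 45.5% of all genes, the combination 5 (2 higher, 3 lower) against 65.2%, and PF-06873600 4 (1 higher, 3 lower) against 56.3%. The number of all genes called under palbociclib, 2478, fell to 1472 without palbociclib replicate 1, to 1301 without palbociclib replicate 2, to 1589 with DESeq2 and to 949 with only the compared groups in the model, and 2 to 4 members were called when 1 library was left out. With 6 members, no test was made of any of these counts against the share of all genes. Under indisulam 61.6% of all calls were higher, and 50.4% were under TMM scaling.

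The question of the 2-drug design was whether palbociclib and indisulam together did more than either alone. Adding palbociclib to indisulam moved *CDKN1A* up by a further 0.83 on the log2 scale (1.77-fold, adjusted p = 2.99e-08). The same addition lowered *CDKN1B* 1.84-fold, *CDKN2C* 3.31-fold and *CDKN3* 3.51-fold, with adjusted p from 4.53e-08 to 9.11e-07. *CDKN1C* had a log2 difference of 1.03 that did not pass (interval -0.03 to 2.09, adjusted p = 0.104), though it did without indisulam replicate 1 (adjusted p = 0.0184), with no filter on low counts and with only the compared groups in the model. In all 4 of 6 members changed between the combination and indisulam, beside 46% of all genes. Set against palbociclib alone, the combination raised *CDKN1A* 12.2-fold and *CDKN1C* 5.27-fold, and lowered *CDKN1B* 1.90-fold, *CDKN2C* 4.77-fold and *CDKN3* 3.53-fold. These were 5 of 6 members, beside 60.4% of all genes.

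Of the 6 members, 4 departed from the sum of the single-drug changes, 1 higher and 3 lower, and 25.2% of all genes had such an interaction. The single drugs summed to a log2 change of 3.61 for *CDKN1A* and the combination gave 4.03, an interaction of 0.41 (SE 0.09, adjusted p = 0.00321). For *CDKN1B* the sum was -0.79 and the combination -1.30, an interaction of -0.51 (SE 0.11, adjusted p = 0.00424). For *CDKN2C* they were -1.81 and -2.90, an interaction of -1.09 (SE 0.16, adjusted p = 0.000143). *CDKN3* showed the widest gap of the 4: the sum was -0.47, the combination -2.05 and the interaction -1.58 (SE 0.20, adjusted p = 5.53e-05). Every one of these interactions ran in the direction of the summed change. *CDKN1C* had an interaction of 1.15 with an interval of -0.97 to 3.27, which turned to -1.39 without untreated replicate 2, and *CDKN2D* one of 0.35 with an interval of -0.54 to 1.24, and neither passed.

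**Figure D3:**
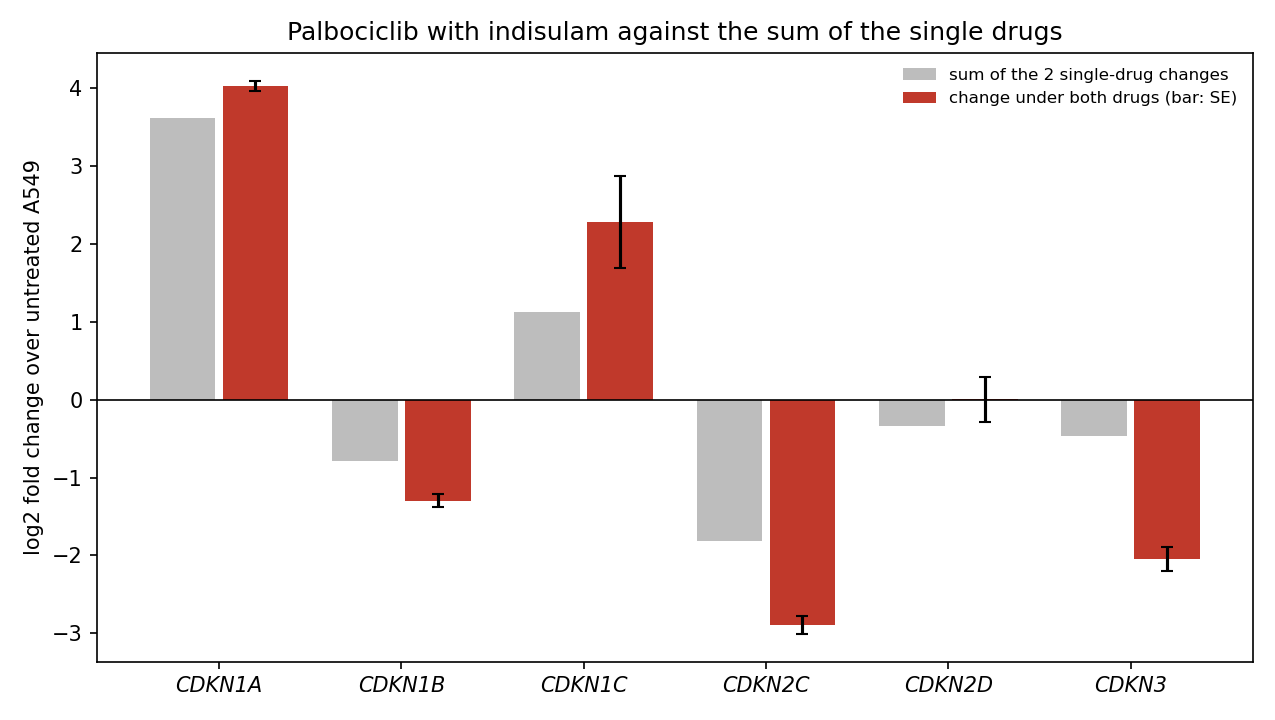
Log2 fold change over untreated A549 (vertical axis) for each gene. Grey bars are the sum of the palbociclib and indisulam changes, red bars the change under both drugs with its standard error. The red bar passes the grey one for *CDKN1A* (4.03 against 3.61), *CDKN1B* (-1.30 against -0.79), *CDKN2C* (-2.90 against -1.81) and *CDKN3* (-2.05 against -0.47).

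PF-06873600 and the combination were compared with the caution that treatment lasted 7 days for the former and 10 days for the latter, so drug and time cannot be told apart. *CDKN1A* was 1.31-fold lower under PF-06873600 than under the combination and *CDKN1B* 1.34-fold lower, with log2 differences of -0.39 (SE 0.06) and -0.42 (SE 0.09). *CDKN2C* and *CDKN3* were higher under PF-06873600 (log2 differences 0.59 and 1.31, 2.48-fold for *CDKN3*, adjusted p = 0.0024 and 1.4e-05). *CDKN1C*, with 4 and 7 counts against 27 and 37, was 5.63-fold lower. In total 5 of 6 members differed (2 higher, 3 lower), beside 51.8% of all genes. Of those calls 40.9% were higher, and 51.8% were under TMM scaling.

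In SUM159, PF-06873600 moved *CDKN1A* up and 4 members down. *CDKN1A* went from 50.5 and 44.8 CPM to 97.4 and 94.6 CPM, 2.01-fold (log2 fold change 1.01, SE 0.07, adjusted p = 2.69e-09). *CDKN1B* went from 19.9 and 18.0 CPM to 14.6 and 14.3 CPM (log2 fold change -0.39, adjusted p = 0.00266). *CDKN2C* went from 54.9 and 47.7 CPM to 25.7 and 28.0 CPM (log2 fold change -0.93, adjusted p = 9.16e-08). The treated and untreated libraries of these genes did not overlap. The deepest fall was that of *CDKN3*, from 47.8 and 43.6 CPM to 17.3 and 16.3 CPM, or 2.73-fold (log2 fold change -1.45, SE 0.08, adjusted p = 6.5e-10). *CDKN1C* had 13 and 17 counts untreated and 8 and 8 treated, a log2 fold change of -1.13 with adjusted p = 0.0217. That call was lost with DESeq2 (adjusted p = 0.202) and without untreated replicate 2, treated replicate 1 or treated replicate 2 (adjusted p = 0.192, 0.0836 and 0.197). *CDKN2D* held 8.74 and 7.33 CPM untreated and 7.19 and 9.31 CPM treated, overlapping, with an interval of -0.29 to 0.39 on the log2 scale. So 5 of 6 members changed, beside 73.7% of the 15055 genes tested in this line.

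The response to PF-06873600 differed between the lines for 4 members, 2 with a higher and 2 with a lower log2 response in SUM159, beside 53% of 17279 genes. *CDKN1A* rose 12.4-fold in A549 and 2.01-fold in SUM159, a log2 difference of -2.62 (SE 0.10, adjusted p = 9.4e-14). *CDKN1B* and *CDKN2C* fell less in SUM159, with differences of 1.33 (SE 0.13, adjusted p = 3.91e-08) and 1.38 (SE 0.15, adjusted p = 2.12e-07). *CDKN3* fell more in SUM159, with a difference of -0.70 (SE 0.17, adjusted p = 0.00167). Treated *CDKN3* levels were 14.9 and 14.6 CPM in A549 and 17.3 and 16.3 CPM in SUM159, where the untreated level was the higher of the pair of lines. For *CDKN1C* the difference was -0.91 with an interval of -3.05 to 1.23 and for *CDKN2D* 0.07 with an interval of -0.65 to 0.79. *CDKN1C* passed without untreated A549 replicate 2 (-3.46, adjusted p = 0.0373).

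Before any drug, the lines differed in 5 members, beside 78.7% of all genes. *CDKN2D* was 4.41-fold higher in SUM159 (log2 difference 2.14, SE 0.22, adjusted p = 4.8e-08) and *CDKN3* 1.86-fold higher. *CDKN1B* was 3.23-fold lower in SUM159 (log2 difference -1.69, SE 0.08, adjusted p = 4.24e-13) and *CDKN2C* 1.28-fold lower. *CDKN1A* was 0.20 higher on the log2 scale (adjusted p = 0.0164), a call lost under TMM scaling (0.10, adjusted p = 0.265), with DESeq2 (adjusted p = 0.227), with only the compared groups in the model (adjusted p = 0.106), without untreated A549 replicate 1 (0.13, adjusted p = 0.156) and without untreated SUM159 replicate 1 (0.11, adjusted p = 0.232). Untreated *CDKN1C* did not pass (1.06, interval -0.28 to 2.41), though it did without untreated A549 replicate 2 (3.61, adjusted p = 0.00397).

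Per kilobase of exon, *CDKN1A* made up most of the summed inhibitor RNA in A549 under indisulam, the combination and PF-06873600. In untreated A549, *CDKN2C* had the highest level of the 6 at 21.8 ± 2.05 CPM per kb (SD, n = 2), and *CDKN1A* and *CDKN3* followed with 13.8 ± 1.07 and 13.5 ± 1.90 CPM per kb, which overlapped. With the length of the longest transcript instead, *CDKN3* (23.0 ± 3.24 CPM per kb), *CDKN2C* (22.7 ± 2.13) and *CDKN1A* (18.3 ± 1.41) came in another order, so the exon length used decided which was highest. With the length of all exons, *CDKN1A* made up 24.2% ± 0.233 (SD, n = 2) of the summed level of the 6 genes there, 36.7% ± 0.926 under palbociclib, 82.2% ± 1.35 under indisulam, 95.4% ± 0.187 under the combination and 91.5% ± 0.711 under PF-06873600. In SUM159 it made up 24.2% ± 0.0622 untreated and 55.9% ± 1.59 treated. The summed level itself was 57.1 ± 4.95 CPM per kb in untreated A549, 50.3 ± 2.38 under palbociclib, 154 ± 4.26 under indisulam, 236 ± 3.80 under the combination and 187 ± 3.59 under PF-06873600. In SUM159 the sum was 65.6 ± 5.38 CPM per kb untreated and 57.3 ± 0.431 treated. The makeup of the pool of 6 genes thus shifted there without a rise in its size. That pool includes *CDKN3*, which encodes a phosphatase and fell in SUM159. The sum of the CIP/KIP family alone rose in SUM159, from 18.3 ± 1.41 CPM per kb untreated to 33.8 ± 0.712 treated. Within the CIP/KIP family alone, the *CDKN1A* share in untreated A549 was 67.0% with the length of all annotated exons and 55.9% with that of the longest transcript, and under the combination 98.4% and 97.7%.

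**Figure D4:**
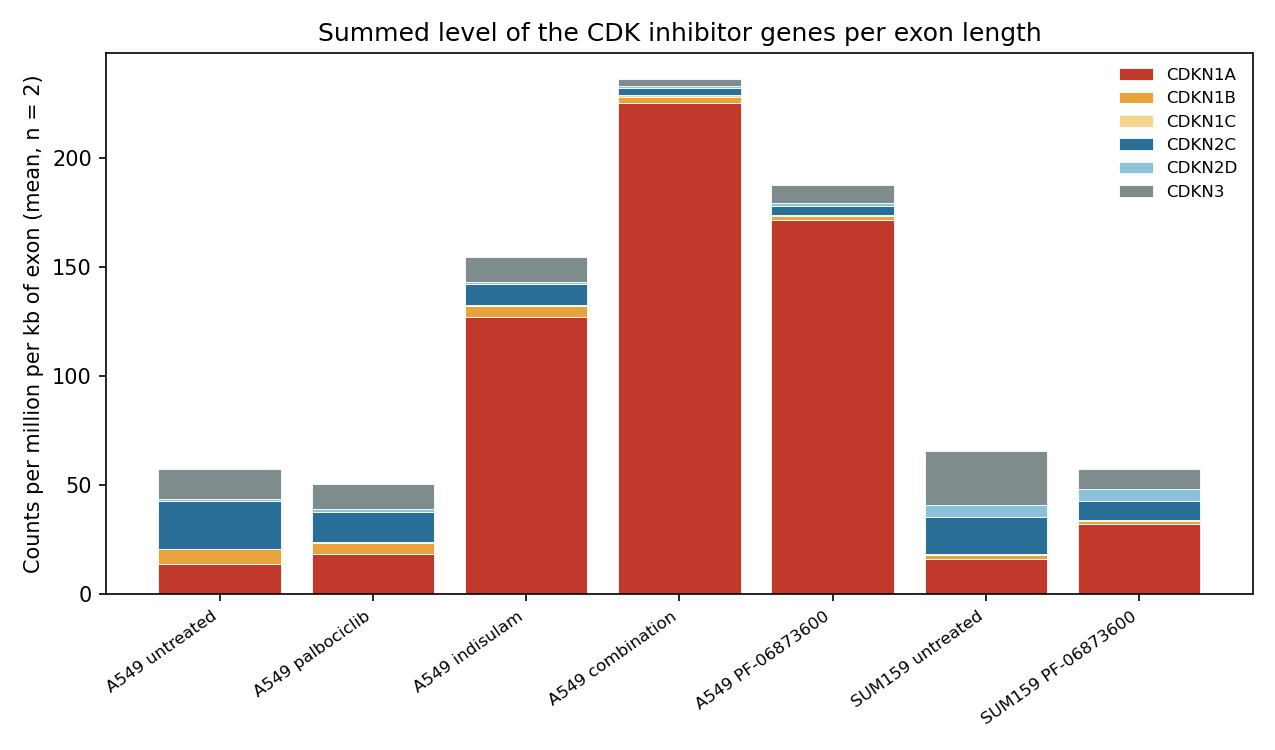
Stacked mean levels of the 6 genes in CPM per kilobase of exon (vertical axis, n = 2 libraries per group) for the 7 groups. The *CDKN1A* segment is 24.2% of the column in untreated A549 and 95.4% under the combination, and the column height goes from 57.1 to 236 CPM per kb.

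Genes around the inhibitors were followed in lists drawn up from general knowledge, but chosen with earlier results of these data known. Of 19 proliferation genes, all 19 were lower under the combination (median -2.14, all genes 0.05) and all 19 lower in SUM159 under PF-06873600 (median -1.5, all genes 0.02). In A549, PF-06873600 gave 7 higher and 11 lower (median -0.42), palbociclib 6 higher and 9 lower (median -0.08) and indisulam 3 higher and 6 lower (median 0.04). Of all tested genes, 65.2%, 73.7%, 56.3%, 15.7% and 45.5% passed under these treatments in the order given. *CDKN3* had log2 fold changes of -2.05, -1.45, -0.74, -0.23 and -0.24 under these treatments in the same order, of which the last 2 did not pass the test. *KIF20A*, a mitotic kinesin, fell by 3.19 under the combination and by 2.94 in SUM159. In A549 under PF-06873600 *KIF20A* fell by 2.67 while *RRM2*, a subunit of ribonucleotide reductase, rose by 1.88.

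**Figure D5:**
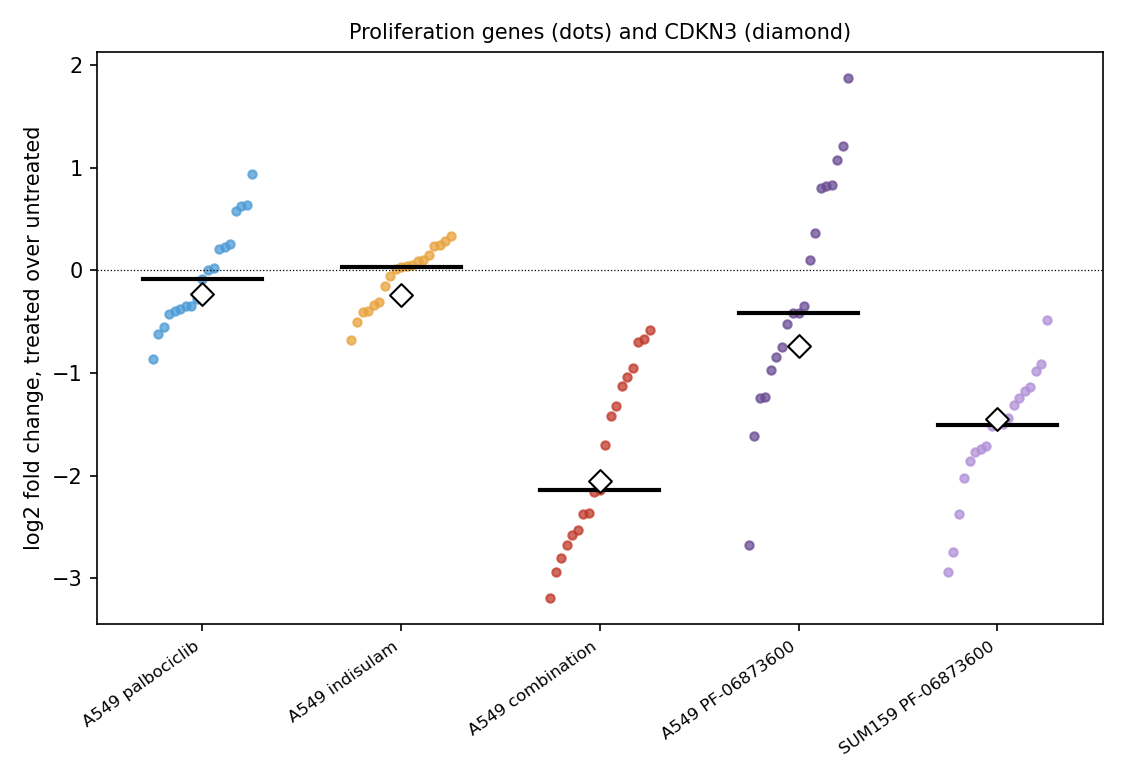
Log2 fold change, treated over untreated (vertical axis), for 19 proliferation genes with *CDKN3* as a diamond, under 5 treatments. Dots are genes in order of size and black lines list medians. *CDKN3* is at -2.05 beside a median of -2.14 under the combination, -1.45 beside -1.5 in SUM159, -0.74 beside -0.42 under PF-06873600 in A549, -0.23 beside -0.08 under palbociclib and -0.24 beside 0.04 under indisulam.

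The partners that the inhibitors bind moved unevenly. Among 12 cyclins and CDKs, 4 were higher and 1 lower under palbociclib, 4 and 1 under indisulam, 5 and 7 under the combination, 8 and 3 under PF-06873600 in A549, and 3 and 6 in SUM159. Their median log2 fold changes were 0.08, 0.06, -0.31, 0.86 and -0.24, beside -0.01, 0.08, 0.05, -0.01 and 0.02 over all tested genes in the same order. The shares of all tested genes that passed were 15.7%, 45.5%, 65.2%, 56.3% and 73.7%, again in that order. *CCND1*, which encodes cyclin D1, rose under all 5 treatments, by 0.62, 0.71, 1.84, 1.55 and 0.69. *CDK1* fell by 2.74 under the combination and the mitotic cyclin gene *CCNB2* fell by 2.46. In A549 under PF-06873600 the cyclin E genes *CCNE1* and *CCNE2* rose by 2.27 and 2.79 and *CDK2* by 1.05, whereas *CDK2* fell by 0.40 in SUM159. *CDK4*, the partner of the INK4 proteins, had log2 fold changes of -0.06 (not passing), -0.34, -0.30, 0.27 and -0.38. *CDK6* had 0.32, 0.25, 0.51, 0.83 and -0.01, of which the last did not pass.

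Genes for the turnover of CIP/KIP proteins were also counted. Of 12, 2 were higher and none lower under palbociclib, 3 and 1 under indisulam, 2 and 6 under the combination, 4 and 2 under PF-06873600 in A549, and 1 and 10 in SUM159, with medians of 0.07, -0.06, -0.14, 0.14 and -0.56. The shares of all tested genes that passed were 15.7%, 45.5%, 65.2%, 56.3% and 73.7% in the same order. The medians over all tested genes are those given for the cyclins and CDKs. No list was tested against these shares. *SKP2*, the F-box protein that recruits p27 for degradation, fell by 0.66 under indisulam, by 1.05 under the combination and by 1.10 in SUM159, and did not pass under palbociclib (0.20) or PF-06873600 in A549 (0.15). *DTL*, the receptor that recruits p21 bound to PCNA, fell by 2.04 under the combination and rose by 1.22 under PF-06873600 in A549. *CDKN1B* RNA fell in all of these groups. Of 16 transcription regulators of the inhibitor genes, 3 were higher and 5 lower under palbociclib, 5 and 3 under indisulam, 3 and 9 under the combination, 5 and 8 under PF-06873600 in A549, and 3 and 10 in SUM159 (medians -0.07, 0.02, -0.35, -0.17 and -0.25). The same shares and medians of all tested genes stand beside these counts. *FOXO1* and *FOXO4*, of the forkhead family known to activate *CDKN1B*, fell by 1.32 and 1.41 under PF-06873600 in A549, and *FOXO4* rose by 1.33 in SUM159. *KLF6*, a known activator of *CDKN1A*, rose by 1.03 under the combination (51.9 to 106 CPM) and averaged 59.4 CPM under indisulam alone. From the same list, *KLF4* fell by 0.81 under palbociclib. *SMAD3* rose by 1.06 under the combination and by 0.53 under indisulam. The methyltransferase gene *EZH2* fell by 1.53 under the combination and by 1.42 in SUM159.

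Likeness of pattern was described by Pearson's r of log2(CPM + 1) over the 14 libraries, which include 2 lines and shared treatments, among 11311 genes. The gene most like *CDKN1A* was *PHLDA3* (r = 0.990), whose mean level went from 21.4 CPM in untreated A549 to 101 CPM under the combination and was 22.0 and 29.0 CPM in untreated and treated SUM159. *TRIML2* (0.983) and *NTN4* (0.976) came next. *CDKN1B* was most like *MATCAP2* (0.986), *CDKN2C* most like *ZBED3* (0.978) and *CDKN3* most like *CSTF2* (0.980), followed by the mitotic kinesin gene *KIF14*. *PRRX1* (0.988) was among the 3 genes most like *CDKN2D*. The best match of the sparsely counted *CDKN1C* was lower, *IVNS1ABP* at 0.849.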

How the data were processed

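The authors prepared strand-specific libraries, sequenced single-end reads and aligned them to hg38, and deposited 1 table of raw read counts per library, 14 in all. Per the labels' processing notes the tools were HISAT2 2.2.1 and HTSeq. The annotation release and the strand setting are not given in the sources used here. Symbols and coordinates came from GENCODE release 44, and 9 summary lines per table were kept out of totals (reads that hit several genes were 3.02% to 3.47%). The members and the gene lists were chosen with earlier results of these data known.

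CPM scaled each library by the total of its gene rows, after the size factor of the study's methods. Genes kept by filterByExpr (15780 in A549, 15055 in SUM159, 17279 in both lines) were tested with the quasi-likelihood F test of edgeR 4.0.16 in R 4.3.3, with a threshold of 0.05 after Benjamini-Hochberg adjustment over all tested genes. The A549 model held 10 libraries, the SUM159 model 4, and the model of both lines, used for line comparisons, 14. Standard errors are the absolute log2 fold change over the square root of F. The smallest two-sided p of an exact permutation test with 2 libraries a side is 0.33. The smallest level was 3 counts, and reads carry no molecular identifiers, so such limits cover counting error only. Scripts were tested on simulated data.

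The text names the members, the genes *CDK2*, *CDK4*, *CDK6*, *CCND1* and *SKP2*, up to 3 genes per list and comparison with the largest change among those that passed, whose groups did not overlap and whose higher group averaged 10 CPM or more, and the 3 genes most like each member. Marker genes, *CDKN2A*, *CDKN2B*, *CDKN2B-AS1* and *DINOL* are named for checks. Alternatives were TMM scaling, DESeq2 1.42.0, no filter, a minimum of 50 counts on average, models limited to the compared groups, the replicate number as a block, longest-transcript lengths and leaving out single libraries. The crossed replicate blocks were added after the data were seen. Some genes, and the results that need them, are not reported here.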

Additional observations from a re-analysis of the deposited data

Results flagged for a closer look

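Among the 6 CDK inhibitor genes, 4 had a response to PF-06873600 that differed between the lines by the interaction test, beside 53% of 17279 genes. Differences are given as SUM159 minus A549 on the log2 scale. The difference was -2.62 for *CDKN1A*, 1.33 for *CDKN1B*, 1.38 for *CDKN2C* and -0.70 for *CDKN3*. For each of them both lines moved in the same direction, and the difference lay in the size. The treated cells of both lines received the same dose for the same time.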

How the results depend on the processing

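Of 703 log2 fold changes of members under the alternatives, 681 stayed on their side of the threshold, 11 fell out of the calls and 11 came in. No called value reversed. Palbociclib against untreated A549 called 2478 genes, 1589 with DESeq2, 949 with only the compared groups and 1301 to 3331 with 1 library left out, with the lowest counts without palbociclib replicates 2 (1301) and 1 (1472). The number of members called under indisulam ran from 3 to 5 with 1 library left out, and 5 were called without indisulam replicate 2. These counts moved by more than 1.5 times, and the cause was not tested. The replicate numbers did not pair the libraries in a uniform way. Deviations of same-numbered libraries correlated at -0.295 between untreated and palbociclib, -0.271 between palbociclib and indisulam, and 0.263 between untreated and indisulam. Between the untreated lines the value was -0.247, and the other pairs ranged from -0.110 to 0.072. What set these correlations was not tested. With the replicate number as a block, palbociclib called 2337 genes and no call of a member changed in any comparison. The crossed blocks, chosen after seeing the data, called 3023 genes under palbociclib and 13575 between the untreated lines, beside 13607 without a block. Where counts were low, as for *CDKN1C* and *CDKN2D* in A549, depth limited what could be seen, and requiring 50 counts on average removed both from the A549 test.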
